A study of Mus musculus with 32 samples.

Results

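Gluconeogenesis is the making of new glucose from lactate, amino acids and glycerol, and in mammals it takes place mainly in liver and in the proximal tubule of the kidney. Pyruvate carboxylase (Pcx) turns pyruvate into oxaloacetate, phosphoenolpyruvate carboxykinase (Pck1 in the cytosol, Pck2 in mitochondria) turns that into phosphoenolpyruvate, fructose bisphosphatase (Fbp1) removes a phosphate further up the path, and the transporter Slc37a4 carries glucose phosphate into the endoplasmic reticulum, where glucose is released. Ketohexokinase (Khk) starts the breakdown of fructose, and the liver pyruvate kinase (Pklr) runs the last step of glycolysis, opposite in direction to the carboxykinase step.

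These 7 genes were followed in RNA pulled down with an antibody against m6A, the methylated adenosine N6-methyladenosine found in messenger and other RNA, from mouse brain, heart, kidney and liver. They were taken by symbol from the 27179 genes of the authors' table, in a choice made with earlier results of these data known. Each was 1 of the 14864 genes with a log2 normalized count above 0 in at least 2 libraries, the set that was tested. Each organ was either flash frozen or formalin-fixed and paraffin-embedded (FFPE), the form in which pathology archives keep tissue. Strain, age and sex of the mice are not given in the sources used here, and all groups shared the same shearing, pulldown and total RNA library kit. The labels list 16 m6A samples, 2 runs for each organ and preservation, but the table holds 1 column per organ and preservation, and whether a column is 1 run or both is not given. The 8 columns are called libraries here.

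Input RNA was not analysed here, so a level in the pulldown holds both how much of an RNA there was and how much of it carried the mark, and these cannot be told apart. In bulk tissue, fewer cells of a type and less RNA per cell cannot be told apart either. Each level is a log2 normalized count (counts per 1000000 of a scaled library size), and the counts recovered from it are given in parentheses. Genes differ in transcript length, so levels are compared between libraries and not between genes.

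Gene counts per library totalled 9603050 (FFPE brain) to 21523379 (frozen brain), of which 3050241 (FFPE liver) to 8004550 (frozen brain) lay outside the ribosomal transcripts. Defining markers set kidney and liver apart as labelled. The 11 hepatocyte markers found in the table summed to a log2 level of 15.00 and 15.11 in FFPE and frozen liver, against 7.77 and 8.52 in kidney, and none of them was at 0 in these 4 libraries. The 8 markers of nephron segments other than the proximal tubule summed to 10.59 and 11.13 in kidney, against 2.06 and 2.62 in liver, where 1 was at 0 in the FFPE library. The 8 markers of the proximal tubule summed to 11.91 and 12.03 in kidney and 8.30 and 9.28 in liver, where Slc27a2, a fatty acid transporter also found in hepatocytes, made up 1941 and 6177 of the 1998 and 6259 counts. Xist, a noncoding RNA of the inactive X chromosome, had 2693 to 6685 counts in the FFPE libraries and 5 to 26 in the frozen ones, so preservation and the sex of the mice cannot be told apart.

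Sequence around the start sites is shown for the carboxykinase pair and for Pklr, whose values set kidney and liver apart most. RefSeq promoters (GRCm38.p6, 250 bases before a start to 50 after it) matched 7 of 7 genes, with 11 promoters in all. They were searched on both strands for TATAAA (the TATA box), TGACG (the core of the cAMP response element), CACGTG (an E-box), CCAAT (the CCAAT box) and GGGCGG (a GC box). Capitals mark each match, and a match on the other strand appears as its reverse complement.

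Pck1: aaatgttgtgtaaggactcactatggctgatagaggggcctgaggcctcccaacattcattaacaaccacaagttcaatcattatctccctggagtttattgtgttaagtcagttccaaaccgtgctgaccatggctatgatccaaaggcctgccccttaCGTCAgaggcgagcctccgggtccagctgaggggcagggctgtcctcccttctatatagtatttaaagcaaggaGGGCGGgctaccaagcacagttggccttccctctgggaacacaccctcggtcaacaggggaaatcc
Pck2: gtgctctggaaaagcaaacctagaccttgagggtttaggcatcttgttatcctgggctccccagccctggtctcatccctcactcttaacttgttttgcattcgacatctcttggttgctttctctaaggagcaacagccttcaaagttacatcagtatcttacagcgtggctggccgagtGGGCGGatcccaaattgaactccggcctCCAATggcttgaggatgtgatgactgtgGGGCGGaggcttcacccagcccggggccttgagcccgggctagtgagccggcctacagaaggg
Pklr at the first start: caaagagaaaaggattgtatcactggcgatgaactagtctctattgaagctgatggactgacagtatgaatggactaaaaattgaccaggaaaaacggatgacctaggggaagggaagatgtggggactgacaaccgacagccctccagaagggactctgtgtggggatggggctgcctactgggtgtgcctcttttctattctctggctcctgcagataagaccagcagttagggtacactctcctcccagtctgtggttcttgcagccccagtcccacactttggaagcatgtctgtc
Pklr at the second start: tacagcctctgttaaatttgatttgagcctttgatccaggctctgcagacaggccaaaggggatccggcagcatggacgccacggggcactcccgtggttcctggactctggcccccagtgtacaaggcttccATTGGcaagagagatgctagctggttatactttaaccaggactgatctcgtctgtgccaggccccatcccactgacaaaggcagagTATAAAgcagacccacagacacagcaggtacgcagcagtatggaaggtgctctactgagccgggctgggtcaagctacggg

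These are the plus strand of chr2:173152823-173153122 for Pck1, chr14:55540016-55540315 for Pck2, chr3:89135892-89136191 for the first Pklr start and chr3:89136373-89136672 for the second. The Pck1 window held TGACG 90 bases before the start and GGGCGG 16 before it, with no overlap between them. Pck2 held neither the TATA box, nor the cAMP element core, nor the E-box letters, and had GGGCGG at 69 and 13 bases and CCAAT at 41 bases before its start. No searched motif lay in the first Pklr window, while the second held TATAAA at 31 bases and CCAAT at 117 bases before its start. Reads were counted per gene, so the Pklr starts are not told apart in the values below.

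Of all 32851 RefSeq mouse promoters of this length, 13.6% held TATAAA, 20.8% TGACG, 7.15% CACGTG, 37.4% CCAAT and 35.7% GGGCGG. Among the 11 promoters of the 7 genes, TATAAA was in 2, TGACG in 4, CACGTG in 2, CCAAT in 5 and GGGCGG in 7. The first and second Slc37a4 windows overlap and share TGACG and GGGCGG matches. Counted by gene, TGACG was in 3 of the 7 and GGGCGG in 6. In Khk the CACGTG match overlapped a TGACG match. These matches describe letters and not bound sites.

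The cytosolic carboxykinase Pck1 lies at chr2:173153073-173159274 and overlaps no other annotated gene. Its level in frozen tissue was 9.72 in kidney (18421 counts) and 10.24 in liver (12126 counts). In FFPE tissue it was 8.30 in kidney (6161 counts) and 10.01 in liver (6527 counts). Liver was the higher organ in both preservations, and FFPE kidney stood lowest of the 4. Brain and heart held next to none of it, with 2 counts in FFPE brain, 3 in frozen brain, 0 in FFPE heart and 8 in frozen heart.

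Pck1 did not differ by test between kidney and liver. The fitted difference, kidney minus liver, was -1.11 ± 0.80 (SE, 95% interval -2.95 to 0.72, limma adjusted p = 0.354). Within frozen tissue kidney held 69.6% of the liver level, and within FFPE tissue 30.7%, as normalized counts. The frozen difference was -0.52 (counting interval -0.56 to -0.49) and the FFPE difference -1.71 (-1.76 to -1.65), so the gap between preservations was far wider than counting error, with 1 library behind each value. The call depended on which libraries set the spread, and a fit to fewer libraries leaves fewer residual degrees of freedom. Without FFPE or frozen heart, whose near-empty values differ most between preservations, adjusted p came to 0.0472 and 0.0470, and with the 4 kidney and liver libraries alone to 0.0397.

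The mitochondrial form, Pck2, at chr14:55540263-55550020 with no overlapping gene, was the only member lower in liver than in every other organ. Its level was 2.01 (86 counts) in FFPE brain and 1.92 (129) in frozen brain, 2.06 (48) in FFPE heart and 1.90 (48) in frozen heart. Kidney stood at 1.73 (64 counts, FFPE) and 2.17 (98, frozen), on either side of the brain and heart values. Liver stood at 0.24 (7 counts, FFPE) and 0.80 (17, frozen), below all 6 other libraries. Kidney exceeded liver by 1.42 ± 0.39 (SE, 95% interval 0.55 to 2.30, limma adjusted p = 0.0238).

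The counts behind Pck2 are small. Kidney over liver was 1.37 in frozen tissue (counting interval 0.65 to 2.24) and 1.48 in FFPE tissue (0.45 to 2.94), above 0 in both. Under quantile normalization the difference was 0.98 with adjusted p = 0.0797. The call was also lost without FFPE kidney (adjusted p = 0.123), frozen kidney (0.214) or FFPE liver (0.0965). In these pulldown libraries Pck2 was thus not highest in liver, and its RNA level without the pulldown was not analysed.

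The counts of Pck2 per count of Pck1 can be read inside each library, where scaling cancels. Such a ratio does not show which gene moves, and the order of Pck1 turned with scaling. This ratio, and that of Pklr to Fbp1 given later, was chosen after the values were seen, and each rests on 1 library with counting error only. Per 1000 counts of Pck1 there were 10.4 of Pck2 in FFPE kidney (95% counting interval 7.99 to 13.3) and 5.32 in frozen kidney (4.32 to 6.49). In liver there were 1.07 in FFPE tissue (0.431 to 2.21) and 1.40 in frozen tissue (0.816 to 2.25). Both kidney libraries lay above both liver libraries.

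Pyruvate carboxylase, Pcx, lies at chr19:4510472-4621752, a span that also holds Lrfn4. Its level was 6.29 in FFPE kidney (1527 counts), 6.89 in frozen kidney (2601), 6.98 in FFPE liver (800) and 8.30 in frozen liver (3171). Unlike Pck1 it was measured in every organ, at 3.88 (315 counts) and 4.14 (605) in FFPE and frozen brain and 2.66 (73) and 2.94 (99) in heart. As deposited, the order of organs was liver, kidney, brain, heart, with no overlap between neighbours, although frozen kidney (6.89) and FFPE liver (6.98) lay close together. Lrfn4 counts ran from 0 in FFPE liver to 261 in frozen brain, and in kidney reached 38, so they were few beside those of Pcx in kidney and liver.

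Pcx was lower in kidney than in liver by test, with a difference of -1.05 ± 0.26 (SE, 95% interval -1.64 to -0.46, limma adjusted p = 0.0156). Within preservations it was -1.41 (counting interval -1.49 to -1.34) in frozen and -0.69 (-0.81 to -0.56) in FFPE tissue. This call rested on the scaling of whole libraries. It was lost under quantile normalization (-0.09, adjusted p = 0.802) and scaling by counts outside the ribosomal transcripts (-0.14, 0.716), and turned with scaling by total counts (0.24, 0.672). It was lost as well without FFPE kidney (adjusted p = 0.102), frozen kidney (0.0969) or frozen liver (0.0912).

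Fructose bisphosphatase, Fbp1, at chr13:62864753-62888298 and overlapping the gene model Gm38679, was all but confined to kidney and liver among the 8 libraries. It had 0 counts in both brain libraries and FFPE heart and 2 in frozen heart. Its level was 6.32 in FFPE kidney (1562 counts), 6.56 in frozen kidney (2060), 7.15 in FFPE liver (901) and 7.75 in frozen liver (2154). As deposited, both liver libraries lay above both kidney libraries, but the difference of -1.01 ± 0.64 (SE, 95% interval -2.48 to 0.46, limma adjusted p = 0.292) did not pass. Within preservations it was -1.19 (counting interval -1.28 to -1.10) in frozen and -0.83 (-0.95 to -0.71) in FFPE tissue. With the 4 kidney and liver libraries alone limma adjusted p was 0.00633, in a fit with fewer residual degrees of freedom. The Fbp1 difference was -0.10 with scaling by counts outside the ribosomal transcripts (limma adjusted p = 0.910), and turned to 0.29 by total counts (0.745).

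The transporter Slc37a4, at chr9:44396946-44402966 with the microRNA gene Mir7085 inside its span, was present in all libraries. Kidney stood at 4.36 (401 counts, FFPE) and 3.53 (253, frozen), and liver at 4.57 (150, FFPE) and 4.66 (253, frozen). Brain had 1.08 (45) and 0.31 (42), and heart 0.95 (22) and 0.51 (18), FFPE first, so the brain and heart ranges overlapped. Kidney minus liver was -0.67 ± 0.32 (SE, 95% interval -1.39 to 0.06, limma adjusted p = 0.160). Within preservations it was -1.13 (counting interval -1.38 to -0.87) in frozen and -0.21 (-0.48 to 0.08) in FFPE tissue, where the interval held 0.

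Ketohexokinase, Khk, at chr5:30921436-30931248 with no overlapping gene, gave no steady order of kidney and liver. FFPE kidney stood at 5.58 (933 counts) and frozen kidney at 5.53 (1009), with FFPE liver at 5.47 (281) and frozen liver at 6.75 (1081). The kidney libraries were nearly level, and FFPE liver fell just under both while frozen liver rose above them. Brain had 9 and 32 counts and heart 10 and 24 in FFPE and frozen tissue. The difference was -1.22 (counting interval -1.35 to -1.10) in frozen tissue and 0.11 (-0.08 to 0.31) in FFPE tissue, and -0.56 ± 0.35 (SE, 95% interval -1.35 to 0.23, limma adjusted p = 0.281) in the fit. Without frozen kidney the fitted difference was 0.04.

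Liver pyruvate kinase, Pklr, at chr3:89136122-89146815, differed most between the organs. Its level was 5.39 in FFPE liver (265 counts) and 6.63 in frozen liver (996), against 2.08 in FFPE kidney (82) and 2.52 in frozen kidney (125). No count was found in either brain library or in FFPE heart, and 6 in frozen heart. Kidney was lower than liver by test, with a difference of -3.71 ± 0.95 (SE, 95% interval -5.89 to -1.54, limma adjusted p = 0.0190). Kidney held 5.77% of the liver level in frozen tissue and 10.1% in FFPE tissue.

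Pklr shares its span with Hcn3, which had 2 and 3 counts in kidney, 0 in both liver libraries and 87 and 55 in FFPE and frozen brain, where Pklr was at 0. The Pklr call held under each of the 5 scalings tried. It was lost when any kidney or liver library was left out, with adjusted p of 0.0880 (FFPE kidney), 0.162 (frozen kidney), 0.0965 (FFPE liver) and 0.0968 (frozen liver), and without a trend in the variance prior (0.0595). Against Fbp1 in the same library, kidney held 52.5 Pklr counts per 1000 in FFPE tissue (counting interval 41.5 to 65.6) and 60.7 in frozen tissue (50.2 to 72.7). Liver held 294 (255 to 338) and 462 (429 to 499), so both kidney libraries lay below both liver libraries. These are pulldown counts, and the ratio does not show whether Pklr or Fbp1 moves.

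**Figure D1:**
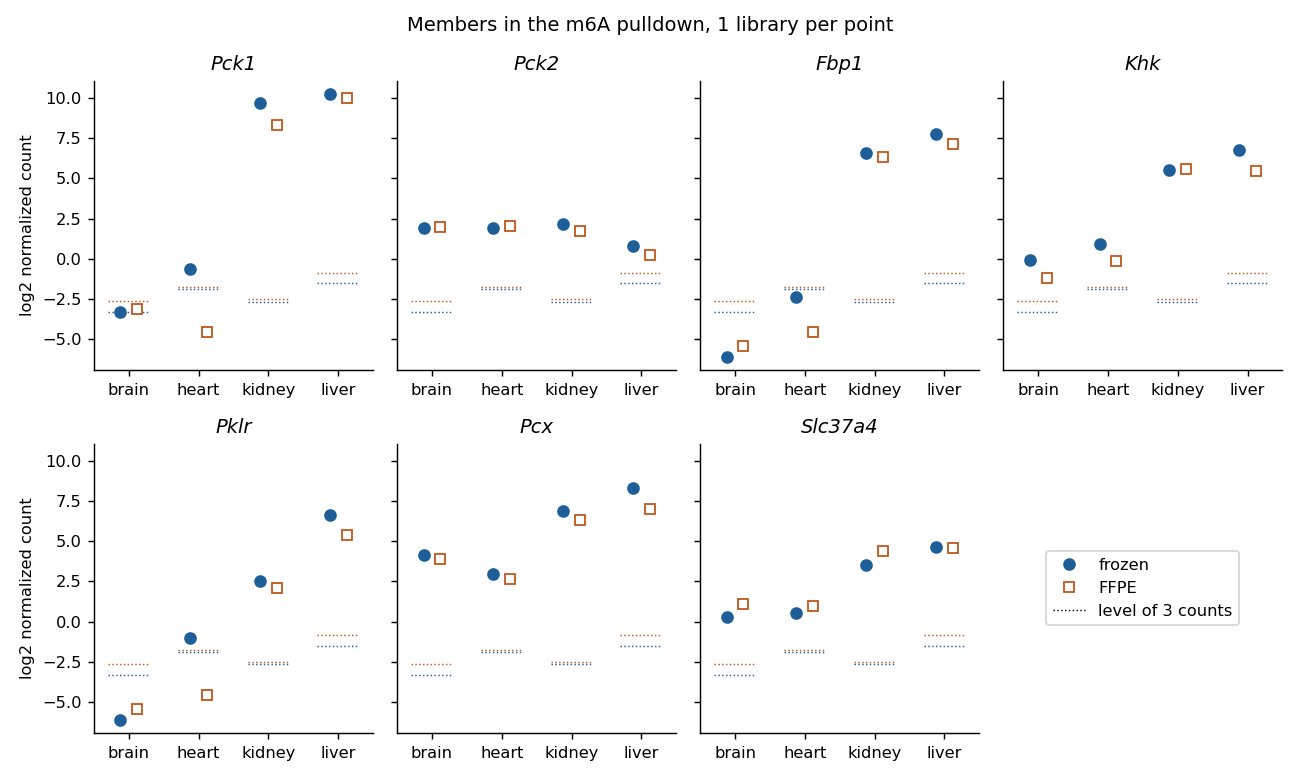
Level of each gene (log2 normalized count) in the 8 libraries, by organ and preservation, with frozen and FFPE tissue marked apart, dotted lines at the level of 3 counts in each library, and libraries with 0 counts at the value the table gives them. Pck2 is the gene whose 2 liver points, 0.24 and 0.80, lie below all others, and Pklr shows liver at 5.39 and 6.63 above kidney at 2.08 and 2.52.

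**Figure D2:**
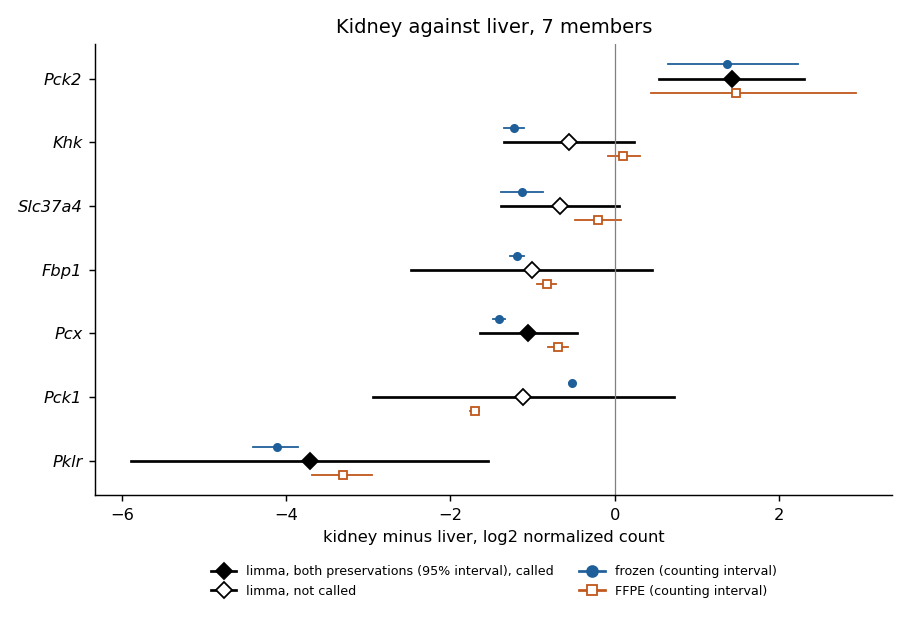
Kidney minus liver (log2) for the 7 genes: diamonds are limma estimates with 95% intervals, filled where called, and circles and squares are the frozen and FFPE differences with counting intervals. Pck2 lies right of 0 at 1.42, Pcx and Pklr lie left of it at -1.05 and -3.71, and the frozen and FFPE points of Pck1, at -0.52 and -1.71, stand apart by more than their counting intervals.

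**Figure D3:**
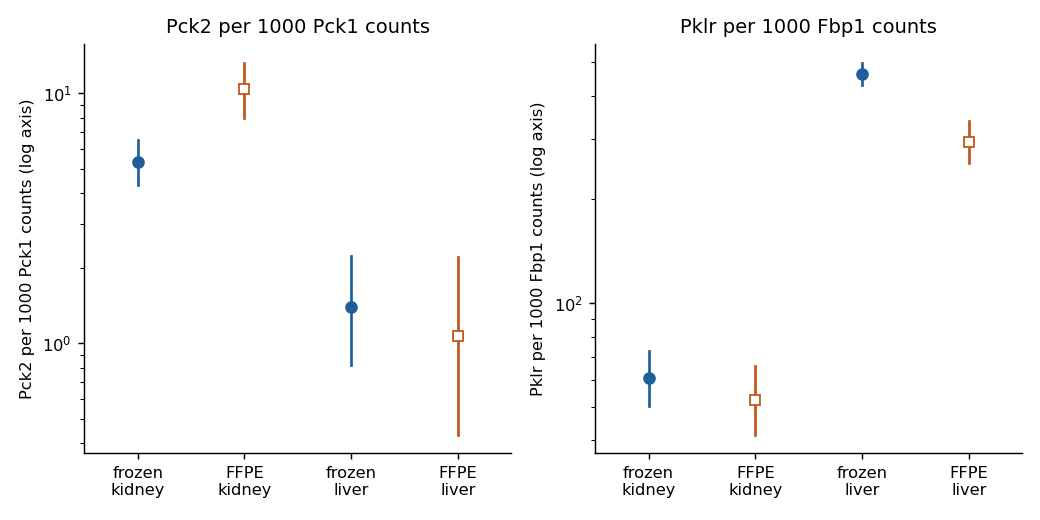
Counts of Pck2 per 1000 of Pck1 and of Pklr per 1000 of Fbp1 in each kidney and liver library, on log axes with counting intervals. Kidney lies above liver in the first ratio (5.32 and 10.4 against 1.07 and 1.40) and below it in the other (52.5 and 60.7 against 294 and 462).

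By limma 1 of the 7 genes was called higher in kidney and 2 higher in liver, and 4 were not called. The median difference was -1.01, against 0.09 over all tested genes. Over all 14864 genes 17.0% were called higher in kidney and 11.5% higher in liver, 28.6% in either direction, so a share of 3 in 7 is to be read against that background. These p-values measure how alike the preservations and organs behaved, not the spread between animals.

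How libraries were scaled moved every difference between kidney and liver. The median difference of all genes was 0.09 as deposited, -0.02 after quantile normalization, -0.10 after centring on medians, 1.38 after scaling by total counts and 0.996 after scaling by counts outside the ribosomal transcripts. Relative to the median gene, the 4 scalings that shift whole libraries give 1 answer, with Pck2 at 1.34, Pck1 at -1.20, Pcx at -1.14, Fbp1 at -1.09, Slc37a4 at -0.75, Khk at -0.64 and Pklr at -3.80. After quantile normalization, Pck2 (1.01) and Pklr (-3.44) stayed far from the median gene, Slc37a4 stood at -0.47, Fbp1 at -0.12, Pcx at -0.06 and Khk at -0.01, and Pck1 turned to 0.23. As scaled, Pck2 and Pklr kept their direction in all 5 scalings and the other 5 genes turned in at least 1, and relative to the median gene only Pck1 turned.

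**Figure D4:**
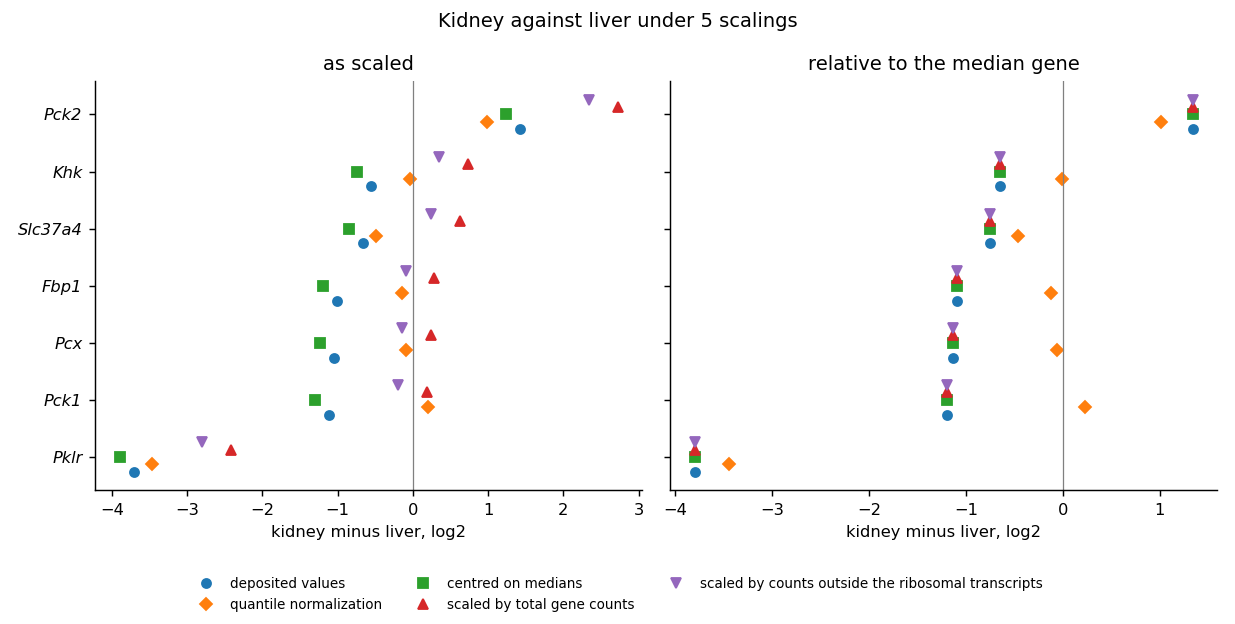
Kidney minus liver (log2) for the 7 genes under 5 scalings, as scaled (left) and relative to the median of all tested genes (right). Pck2 stays right of 0 and Pklr left of it in both panels, while quantile normalization draws Pck1, Pcx, Fbp1 and Khk to between -0.12 and 0.23 of the median gene.

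Set against brain and heart, kidney and liver carried most of these genes at far higher levels. The comparisons share the brain and heart libraries, so their values are given side by side and not compared. Pck1, Fbp1, Khk and Pklr passed the filter on low values only through kidney and liver and so had to differ from brain and heart. Their fitted values also depend on the 0.5 added to each count, so bounds from libraries are given, with a floor of 3 counts per library and the lowest value of 3 scalings (as deposited, total counts, counts outside the ribosomal transcripts). Fbp1 was at least 311-fold higher in FFPE kidney than in FFPE heart and at least 1035-fold higher in frozen liver than in frozen brain. Pck1 was at least 1225-fold and 1993-fold higher in FFPE kidney and FFPE liver than in FFPE heart. Pklr was at least 16.3-fold and 80.9-fold higher in these libraries than in FFPE heart. As deposited, the liver bounds were 2448-fold for Fbp1, 3995-fold for Pck1 and 162-fold for Pklr, and the other scalings were added after the data were seen. Bounds against FFPE brain were lower for Fbp1 and Pklr, with scaling by total counts. For Fbp1 they were 271-fold in FFPE kidney and 194-fold in FFPE liver, and for Pklr 14.2-fold and 57.0-fold. Frozen heart had 6 counts of Pklr and 8 of Pck1, above the floor, so it gave no bound for these genes. As deposited, Pklr stood at log2 -0.997 in frozen heart and 2.52 in frozen kidney, a smaller difference than any of these Pklr bounds.

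The members that brain and heart also express give measured differences. Pcx exceeded the mean of brain and heart by 3.19 ± 0.22 in kidney and 4.24 ± 0.22 in liver (SE, limma adjusted p = 2.13e-05 and 2.18e-06). Slc37a4 exceeded it by 3.23 ± 0.27 and 3.90 ± 0.27 (5.01e-05 and 8.93e-06). Pck2 stood at -0.03 ± 0.33 in kidney (95% interval -0.79 to 0.74, limma adjusted p = 0.962) and -1.45 ± 0.33 in liver (0.00618). Liver thus carried less Pck2 than brain and heart, while for kidney the interval spans 0 in both directions. Of all genes, 19.4% were called higher and 19.6% lower in kidney than in brain and heart (39.0% either way), and 22.5% higher and 29.7% lower in liver (52.2%).

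FFPE and frozen tissue were compared over the 4 organs. By limma 0 of the 7 genes were called, and of all genes 1 was called higher in FFPE tissue (0.00673%) and none lower. With voom weights 0 of the 7 were called, against 418 of all genes (2.81%). At an unadjusted p under 0.05 there were 3 members in the limma fit (Pck1, Khk and Pcx), against 18.6% of all genes, and 5 with voom weights, against 21.1%. With scaling by total counts Pck1 was called lower in FFPE tissue (-1.46, limma adjusted p = 0.0268), where 1.20% of all genes were. FFPE minus frozen was -1.35 ± 0.57 for Pck1 (SE, adjusted p = 0.255), -0.85 ± 0.25 for Khk (0.154) and -0.62 ± 0.18 for Pcx (0.160), and Slc37a4 had the sole positive value, 0.49 ± 0.22 (0.282).

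Single organs carried these values unevenly. For Pck1, FFPE minus frozen was -1.41 in kidney and -0.23 in liver. Khk did the reverse, with 0.05 (counting interval -0.08 to 0.18) in kidney and -1.28 (-1.47 to -1.09) in liver. Slc37a4 was higher in FFPE than in frozen kidney, by 0.83 (0.60 to 1.06), with -0.09 in liver (-0.39 to 0.21). Pcx stood at -0.60 and -1.32, and Pklr at -0.44 and -1.24, in kidney and liver. The median of all genes was 0.02 in kidney and -0.01 in liver. Whether the organs differ in this was not tested, since each value rests on 1 library a side. The 11 hepatocyte markers summed to 4267 counts in FFPE kidney and 8031 in frozen kidney (log2 7.77 and 8.52). The 5 adipocyte markers summed to 1.38 in FFPE and 5.60 in frozen liver, with Adipoq and Plin1, which define the cell type, at 0 in both and Cidec going from 1 to 399 counts. Their part in these values was not tested.

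The rest of the pathway was read from 7 lists of 90 entries, 89 of them tested. Between kidney and liver 20 were called higher in kidney and 38 higher in liver, with a median of -0.67. Over all 14864 tested genes 17.0% were called higher in kidney and 11.5% higher in liver. The counts of each list are to be read against these shares. They include genes that passed the filter only through the organ where they were higher, named with their lists below, whose calls are no support. With log2 above 1 asked in at least 4 libraries, which 1 organ alone cannot meet, 16 were called higher in kidney and 28 in liver. Of the 10247 genes then tested, 1916 were called higher in kidney and 1280 in liver. Scaling by total counts adds 1.29 to each difference that follows, and scaling by counts outside the ribosomal transcripts adds 0.91, so differences from there up to 0 turn sign with them. Of 17 genes of gluconeogenesis and the shared glycolytic steps, 2 were higher in kidney and 3 in liver. Those in kidney were G6pc3, a widely expressed glucose phosphatase (1.60), and Fbp2, the muscle bisphosphatase, with 53 and 69 counts in FFPE and frozen kidney against 0 and 1 in liver. Those in liver were the aminotransferases Got1 (-1.74) and Got2 (-1.71) and the mitochondrial pyruvate carrier subunit Mpc1 (-0.73). G6pc, which releases glucose in the last step, had 2632 and 2851 counts in FFPE and frozen kidney and 1697 and 2170 in liver, with a difference of -0.86 (adjusted p = 0.261). The median of this list was -0.30, and it turned to 0.22 after quantile normalization, 0.99 by total counts and 0.61 outside the ribosomal transcripts.

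Control of hepatic glucose use was the list most to the liver side. All 8 of its genes were called higher in liver, with a median of -4.75, though Gckr and Tat passed the filter only through liver. Among them were Pfkfb1, which sets the level of a glycolytic activator (-5.13), the glucagon receptor Gcgr (-3.21) and the carbohydrate response factor Mlxipl (-1.57). Tat, which breaks down tyrosine, had 5490 and 2294 counts in FFPE and frozen liver and 2 and 3 in kidney. Under the 5 scalings 6 to 8 of these genes were called higher in liver and 0 in kidney. Of all 14864 genes, 638 to 2170 were called higher in liver and 2150 to 7217 higher in kidney under these scalings.

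Glycogen genes followed, with 8 of 11 called higher in liver, 0 in kidney and a median of -2.08 (4 to 8 in liver and 0 to 1 in kidney under the 5 scalings). They included the liver glycogen synthase Gys2 (-3.99), the liver phosphorylase Pygl (-4.55) and the phosphatase targeting subunits Ppp1r3b (-7.85) and Ppp1r3c (-5.49). Isozymes typical of other tissues went to the kidney side, with 8 of 11 tested called higher in kidney, 0 in liver and a median of 2.03. Pkm, the pyruvate kinase of muscle and most other tissues and the counterpart of Pklr, stood at 5.29 (760 counts) and 5.47 (973) in FFPE and frozen kidney and at 2.17 (28) and 2.47 (55) in liver. Its difference was 3.06, opposite in sign to that of Pklr. Hexokinase Hk1 (4.54), the phosphofructokinase Pfkp (3.80) and aldolase Aldoa (2.03) were called on the same side. Under the other scalings 6 to 9 of these isozymes were called higher in kidney, and after quantile normalization 1 in liver. The 9 came by total counts and outside the ribosomal transcripts, where 6893 and 7217 of all 14864 genes were called higher in kidney.

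Entry of precursors divided between the organs, with 5 of 16 genes called higher in kidney and 10 in liver (median -1.32). The balance moved with scaling. After quantile normalization 6 were called higher in kidney and 8 in liver, and by total counts 6 in each (median -0.03). Gls2, the liver-type glutaminase, had 1 and 2 counts in FFPE and frozen kidney and 448 and 369 in liver. Lactate dehydrogenase Ldhb was higher in kidney (6.06) and Ldha in liver (-1.15), and the alanine aminotransferases Gpt (-4.61) and Gpt2 (-4.50) were higher in liver. Slc6a19, a transporter of neutral amino acids, passed the filter only through kidney, and Aqp9, a glycerol channel, and Sds, serine dehydratase, only through liver.

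In the list of fructose, galactose and sugar transport, 4 of 13 were called higher in kidney and 2 in liver (median -0.98, and 0.32 with scaling by total counts). Of the 4 in kidney, 3 passed the filter only through kidney, the glucose carriers Slc5a1 and Slc5a2 and the fructose carrier Slc2a5. Slc5a2 had 1509 and 638 counts in FFPE and frozen kidney against 1 and 3 in liver. The triose kinase Tkfc, which acts after Khk in fructose breakdown, was not called, at -1.26 (limma adjusted p = 0.0619). Of 14 transcription factors and coactivators 1 was called higher in kidney, Ppargc1a, a coactivator of gluconeogenic genes (1.96), and 7 in liver (median -1.26, and 0.03 by total counts), among them Cebpa (-3.74) and Ppara (-2.04). Foxa2, Creb3l3 and Onecut1 of these 7 passed the filter only through liver. Hnf4a (-0.47) and Foxo1 (-0.48) were not called.

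**Figure D5:**
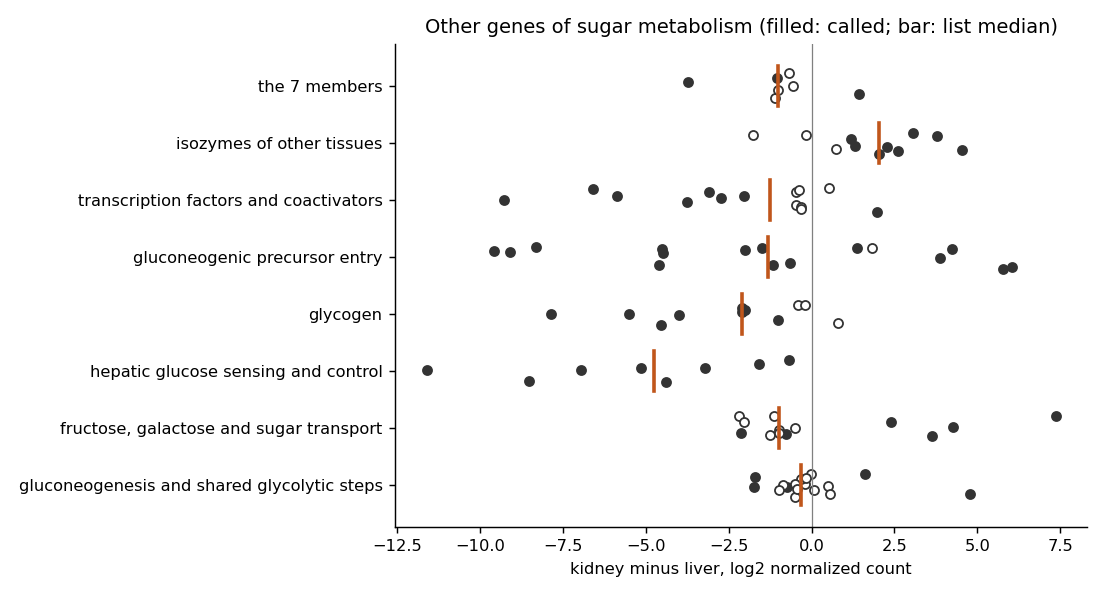
Kidney minus liver (log2, limma) for every tested gene of the 7 lists and, in the top line, the 7 genes above, 1 point per gene, with called genes filled and a bar at each median. The hepatic glucose control list lies wholly left of 0 around its median of -4.75, the isozymes of other tissues lie mostly right of it around 2.03, and the 17 genes of the glucose-making path itself centre on -0.30.

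The genes most like each member over the 8 libraries were ranked by Pearson r among genes with a mean log2 value of at least 3. These values describe 4 organs, each seen in both preservations. Among the 3 nearest genes of Pck1 were Mettl7a1 (0.995) and Lactb2 (0.985), and of Fbp1 Man2b1 (0.997) and Aco1 (0.993). Those of Khk included Man2b1 (0.991) and Idh1 (0.987), and those of Slc37a4 Hs6st1 (0.991) and Grpel2 (0.980). Man2b1, a lysosomal mannosidase, was thus near both Fbp1 and Khk. Pklr was nearest to Apob, Gcdh (0.987) and Cyp2e1 (0.985), the first and last of which are in the hepatocyte marker list. Pcx was nearest to Tgoln1 (0.992), Brap (0.990) and Ppp4r3b (0.987). Pck2 had other neighbours, Hk1 (0.980), Rab11fip5 (0.979) and Zfp608 (0.977), of which Hk1 is also low in liver.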

How the data were processed

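RNA of 4 mouse organs, frozen or FFPE, was pulled down with an m6A antibody. Per the submitters' processing notes, HISAT2, featureCounts, limma and mm10 were used, with versions and settings not given in the sources used here. The authors deposited log2 normalized counts, 1 column for each organ and preservation. Columns are named by organ and preservation alone, so m6A is taken from the table's name. From the values, 0.5 was added to each count over a library size scaled by between 0.426 for FFPE liver and 2.24 for FFPE brain, and 100% of values came out as whole counts within 0.001, relative to 10000 for larger counts. Another 8 columns, which match no sample of the labels, were left out.

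Genes with log2 above 0 in at least 2 libraries were tested with limma, with terms for organ and preservation (3 residual degrees of freedom) and eBayes with a trend, at Benjamini-Hochberg adjusted p under 0.05 over all genes tested. Differences between single libraries carry exact 95% counting intervals, which cover counting error only. A 0 was bounded at 3 counts. The fit was tested on simulated data. All 7 members were named, any gene of the pathway lists could be, and so could the 3 named genes most correlated with each member. Some genes that this rule takes, and 1 motif of the promoter search, are not reported here. The members and lists were chosen with earlier results of these data known. Alternatives were other scalings, filters, a count of 2 added, library or voom weights, no trend, kidney and liver alone, and each library left out. Fits used limma 3.58.1 in R 4.3.3. Counts and intervals used Python 3.11.15 with pandas 2.3.3, scipy 1.17.1 and numpy 2.4.6, and plots used matplotlib 3.10.9. Promoters are from RefSeq, GRCm38.p6.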

Additional observations from a re-analysis of the deposited data

How the results depend on the processing

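Kidney against liver was recomputed under 11 other settings, the other comparisons under the 10 that apply to them, and all with each of the 8 libraries left out, which leaves that organ a lone library assumed to vary like the others. For kidney against liver, scaling by total counts gave Pck1 0.18, Fbp1 0.29, Khk 0.74, Pcx 0.24 and Slc37a4 0.63, and scaling outside the ribosomal transcripts Khk 0.35, Slc37a4 0.24 and Pcx -0.14. Quantile normalization gave Pck1 0.21, Pck2 0.98 and Pcx -0.088, the latter pair no longer called. Voom weights called Pck1 (-1.18) and Fbp1 (-1.02) but not Pck2 (1.39). Kidney and liver alone called Pck1 (-1.11) and Fbp1 (-1.01) but not Pck2 (1.42). Without a trend, Pklr (-3.71) and Pcx (-1.05) were not called. Leaving out libraries gave -1.86 to -0.37 for Pck1, 1.18 to 1.67 for Pck2, -1.24 to -0.78 for Fbp1, -1.16 to 0.043 for Khk, -4.18 to -3.24 for Pklr, -1.52 to -0.58 for Pcx and -1.05 to -0.28 for Slc37a4. For kidney against brain and heart, Pck2 was 0.11 by total counts, 0.18 outside the ribosomal transcripts, 0.0082 by voom, and -0.20 to 0.14 with a library left out (0.068, 0.090 and 0.14 without FFPE brain, FFPE heart or FFPE kidney). For FFPE against frozen, Fbp1 was 0.044 after quantile normalization, and Pck1 was called by total counts (-1.46). The 2534 genes called higher in kidney became 6893 by total counts and 7217 outside the ribosomal transcripts, and 1100 to 2589 with a library left out. The 1711 higher in liver became 638, 898 and 936 to 1774. Of the pathway genes, 31 were higher in kidney outside the ribosomal transcripts and 22 in liver by total counts, and 12 to 21 and 26 to 41 with a library left out. The cause was not tested. Pck2 rests on the fewest liver counts of the 7 genes, 7 and 17. No paired analysis was possible because the columns carry no run numbers.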

Other observations

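Frozen heart held a few counts of some genes otherwise seen mainly in kidney and liver, where FFPE heart held fewer. There were 8 counts of Pck1, 6 of Pklr, 2 of Fbp1, 10 of G6pc and 8 of Hnf4a in frozen heart, against 0, 0, 0, 2 and 0 in FFPE heart. The fixed marker lists differed less, with 120 hepatocyte and 86 proximal tubule marker counts in frozen heart and 80 and 50 in FFPE heart. More genes had a count in frozen heart (22227) than in FFPE heart (15723), and the frozen library had more in each organ. A link between these was not tested, and these are 1 library each.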
